A study of Mus musculus with 6 samples.

Results

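S100 proteins are small calcium-binding proteins of the EF-hand kind, and 8 of their genes were followed in alveolar macrophages, the phagocytes that live in the airspaces of the lung. The genes S100a1, S100a4, S100a6, S100a8, S100a9, S100a10, S100a11 and S100a13 were picked by symbol from a count table of 25664 genes. RNA came from mouse macrophages sorted out of lavage fluid, in 6 libraries. The 3 control libraries have the genotype Pex5fl/fl. The 3 libraries called Pex5-deficient have Vav1cre/+ on top of Pex5fl/fl, so the floxed alleles are common to both groups and the recombinase is what differs. PEX5 is the receptor that brings matrix enzymes into peroxisomes, and the study asks what peroxisomes do for these cells. Vav1-Cre acts across the haematopoietic lineages, so deletion is not limited to macrophages. The labels give no age or sex and do not say that each library is a separate mouse, and p-values therefore measure only the spread between these libraries, which may be technical.

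Most S100 proteins form dimers that expose a binding face when calcium rises and then grip a target protein. S100A8 and S100A9 pair as calprotectin, an abundant cytosolic protein of neutrophils and monocytes that binds metal ions and, once released, acts on TLR4 and RAGE. S100A10 and S100A11 bind annexins at membranes, S100A4 and S100A6 bind cytoskeletal and scaffold proteins, S100A1 is best known as a regulator of calcium cycling in muscle, and S100A13 takes part in the release of proteins that lack a signal peptide.

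Total counts ran from 13325609 to 19413838 per library. Pex5-deficient replicate 2 stood apart with a scaling factor of 1.34, the others lying between 0.899 and 1.03. Levels are in CPM, read counts scaled to a common library size after correction by the trimmed mean of M values (TMM). Siglecf, which marks alveolar macrophages, was found in every library at 177 CPM or more. Its mean fell from 651 CPM in control to 219 CPM in Pex5-deficient libraries, a log2 fold change of -1.57. Of 13 markers of these cells, 4 were called lower (Siglecf, Ear1, Fabp1 and Krt79) and 1 higher (Fabp4) at an adjusted p of 0.05. Of all tested genes 3.25% were called. Pex5 gave 31.6 ± 1.71 CPM without and 32.4 ± 3.45 CPM with the recombinase (SD, n = 3). Exons that remain after deletion are still counted, so this does not check the labels.

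All 8 genes lie on chromosome 3 of GRCm38. In order along it, S100a1 (90511034 to 90514392, minus strand), S100a13 (90514435 to 90524581, plus), S100a4 (90603771 to 90606045, plus), S100a6 (90612882 to 90624181, plus), S100a8 (90668978 to 90670035, plus) and S100a9 (90692632 to 90695721, minus) form the first group. S100a11 (93520488 to 93526287, plus) and S100a10 (93555080 to 93564643, plus) follow after a gap of 2824766 bases. S100a1 and S100a13 point away from each other with 42 bases between their annotated bodies. RefSeq puts their starts at 90514330 and 90514435, and the 104 bases between these are shown because S100a1 was called and S100a13 was not. The stretch is read on the plus strand of GRCm38.p6 at chr3:90514331-90514434.
S100a1-S100a13 interval: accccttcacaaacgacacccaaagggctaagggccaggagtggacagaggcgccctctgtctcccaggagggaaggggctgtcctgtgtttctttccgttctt

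Promoter sequence from RefSeq was found for 7 of the 8 members, all but S100a10. The 250 bases before the start are printed for S100a8, which rose, for its partner S100a9, which had 0 counts, and for S100a11, which lay at the threshold. They lie in GRCm38.p6 at chr3:90668821-90669070 (plus), chr3:90695722-90695971 (minus) and chr3:93520246-93520495 (plus). Capitals mark matches to 6 short motifs that were searched on both strands.
S100a8: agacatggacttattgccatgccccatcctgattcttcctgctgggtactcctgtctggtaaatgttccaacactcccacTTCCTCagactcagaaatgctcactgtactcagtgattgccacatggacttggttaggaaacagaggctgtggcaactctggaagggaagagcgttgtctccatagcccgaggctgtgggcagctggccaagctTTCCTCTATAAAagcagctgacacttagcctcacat
S100a9: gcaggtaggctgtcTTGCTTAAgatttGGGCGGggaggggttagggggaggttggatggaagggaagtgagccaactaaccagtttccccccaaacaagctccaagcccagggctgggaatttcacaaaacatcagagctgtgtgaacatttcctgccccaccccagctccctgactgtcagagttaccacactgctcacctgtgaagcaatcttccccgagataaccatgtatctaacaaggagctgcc
S100a11: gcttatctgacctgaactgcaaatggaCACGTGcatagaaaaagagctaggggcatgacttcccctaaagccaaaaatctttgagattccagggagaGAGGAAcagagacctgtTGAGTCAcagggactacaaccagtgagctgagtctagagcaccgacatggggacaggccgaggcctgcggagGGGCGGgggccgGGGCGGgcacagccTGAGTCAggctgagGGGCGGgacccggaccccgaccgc

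The AP-1 motif, searched as TGANTCA, was found at 136 and 38 bases before the start of S100a11, and 6.75% of 32851 RefSeq windows of this length hold it. The PU.1 motif, searched as GAGGAA and present in 23.3% of windows, was found on the opposite strand at 170 and 36 bases before the start of S100a8 and once in the S100a11 window. The TATA box, searched as TATAAA and present in 12.4% of windows, was found 30 bases before the start of S100a8, directly against a PU.1 match. The C/EBP motif, searched as TTGCNNAA and present in 9.56% of windows, was found 236 bases before the start of S100a9. The GC box, searched as GGGCGG and present in 32.7% of windows, was found in the windows of S100a9 and S100a11, in the latter at 3 places. The E-box, searched as CACGTG and present in 6.02% of windows, was found in that of S100a11. The interval between S100a1 and S100a13 held none of the 6. These are matches of letters and say nothing of what binds there.

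Pex5-deficient macrophages held about 3-fold more S100a1 and 4.21-fold more S100a8 transcript than control macrophages. S100a11 had a lower value that lay at the edge of the threshold, and S100a10 and S100a13 were not called. S100a4 and S100a6 varied more among control libraries than between genotypes, and S100a9 had 0 counts in every library. In edgeR's quasi-likelihood fit, with p adjusted by Benjamini-Hochberg over 11011 genes, 2 of the 7 members tested rose and 0 fell, and 3.25% of all tested genes were called. For 4 of the 7 the groups did not overlap on the TMM scale, against 26.1% of all tested genes. The members, and the gene lists below, were chosen with earlier results of these data known. Such shares therefore cannot show that S100 genes change more often than others. The median log2 fold change was 0.10 over the tested members and 0.00 over all tested genes. In RNA from a whole sample, fewer cells of a type and less RNA per cell cannot be told apart.

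**Figure D1:**
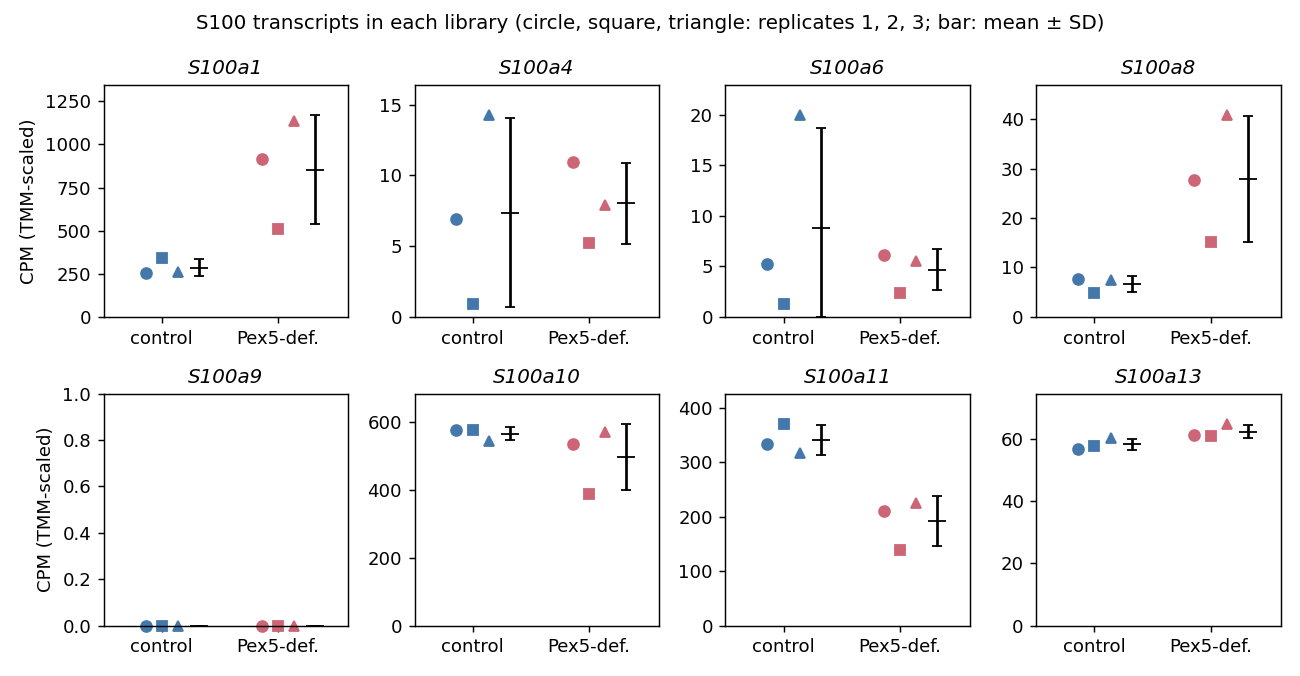
CPM on TMM-scaled library sizes (vertical axes, each from 0) for the 8 S100 genes in 3 control (blue) and 3 Pex5-deficient (red) libraries, with the mean and SD beside the points (error bars stop at 0). The Pex5-deficient libraries all lie above the control libraries for S100a1 and S100a8 and below them for S100a11, and S100a9 is at 0 throughout.

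S100a1, the regulator of calcium cycling, was at 254, 340.3 and 261 CPM in the control libraries (replicates 1 to 3). The Pex5-deficient libraries, again in the order of their numbers, had 917, 512 and 1134 CPM. All of them lay above all control libraries, and replicate 2 was the lowest. The mean went from 285 ± 48.0 to 854 ± 316 CPM, a log2 fold change of 1.58 ± 0.28 (SE, 95% interval 0.94 to 2.22, adjusted p = 0.0236). The call ended when control replicate 1 (adjusted p = 0.122), 2 (0.0580) or 3 (0.0931) or Pex5-deficient replicate 1 (0.0889) was left out, while the log2 fold change stayed at 1.32 to 1.86 whichever library was dropped.

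S100a13, its divergent neighbour, was at 56.6, 57.7 and 60.2 CPM in control against 61.2, 61.0 and 64.7 CPM in Pex5-deficient libraries, listed in the same order. The groups did not overlap on this TMM scale, but the step between them was under 1 CPM. The log2 fold change of 0.10 ± 0.09 was not called (95% interval -0.11 to 0.30, adjusted p = 0.599). Scaled by library size alone, the groups overlapped and the log2 fold change was 0.26 ± 0.22, also not called. Within a library, where scaling has no part, S100a1 had 4.33 to 5.90 counts for each count of S100a13 in control and 8.39 to 17.5 in Pex5-deficient macrophages. Of the 7 tested genes within 100 kb of a member 0 were called, against 3.25% of all tested genes, a share at which so few would often hold none. They include Gm42674, which shares exonic bases with S100a4. Chtop, the nearest on the other side of S100a1, had a log2 fold change of -0.19 ± 0.10 (adjusted p = 0.334).

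S100a8, a calprotectin subunit, was at 7.67, 4.75 and 7.56 CPM in control replicates 1, 2 and 3. Its level in Pex5-deficient replicates 1, 2 and 3 was 27.8, 15.3 and 40.8 CPM. The lowest Pex5-deficient library was well above the highest control library. The mean went from 6.66 ± 1.65 to 27.9 ± 12.8 CPM, a log2 fold change of 2.07 ± 0.35 (95% interval 1.28 to 2.87, adjusted p = 0.0203). Among Pex5-deficient libraries replicate 3 was highest and replicate 2 lowest, as for S100a1. The call ended when control replicate 1 (adjusted p = 0.0817), 2 (0.0695) or 3 (0.0545) or Pex5-deficient replicate 1 (0.0704) was left out, and with limma-voom (0.0513).

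S100a9, the other subunit of calprotectin, had 0 counts in all 6 libraries and could not be tested. The annotation and strand setting used for counting are not known, so whether these zeros mean absent transcript was not settled. If S100a9 reads could be counted, a count of 0 allows up to 0.126 to 0.235 CPM per library, taking 3 counts as the limit and covering counting error only. S100a8 had 83 to 112 counts in control and 355 to 722 counts in Pex5-deficient libraries. Under the same condition S100a8 was, per kilobase of exon, at least 20.8-fold higher than S100a9 in control replicate 2, where the margin was narrowest, and at least 181-fold higher in Pex5-deficient replicate 3. No other GENCODE gene overlaps S100a9 or shares a 100-base word with it.

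Markers of neutrophils, where calprotectin is best known, mostly had few or no counts. Of 17 such markers other than S100 genes, 13 stayed under 1 CPM in every library and 8 had 0 counts throughout, among them Ly6g, Mpo, Elane, Camp, Ngp, Retnlg and Mmp9. As for S100a9, whether rows of 0 counts mean absent transcript was not settled. The 17 summed to 269 to 466 CPM in control against 364 to 567 CPM in Pex5-deficient libraries, most of it from Wfdc21 (257 ± 113 and 372 ± 107 CPM, not called). Cxcr2, a chemokine receptor of neutrophils, went from 6.09 ± 2.53 to 27.8 ± 4.75 CPM and was called higher (log2 fold change 2.17 ± 0.28, adjusted p = 0.00808). Mmp8, a neutrophil collagenase, had 36.9 ± 1.72 and 69.3 ± 34.8 CPM (0.90 ± 0.31, adjusted p = 0.156). Csf3r, the receptor for the growth factor of neutrophils, had the opposite sign, with 40.5 ± 7.84 and 28.1 ± 9.44 CPM (-0.52 ± 0.24, adjusted p = 0.279). Of 9 monocyte markers, which summed to 23.9 to 29.0 and 31.4 to 35.9 CPM, 6 stayed under 1 CPM in every library, Ly6c2 and Plac8 among them. Ace was called higher, at 15.7 ± 1.78 against 24.8 ± 3.56 CPM (adjusted p = 0.0463). The part of Wfdc21-, Cxcr2- or Ace-expressing cells in the S100a8 result was not tested.

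S100a10, which has lost calcium binding and joins annexin A2 at membranes, was at 574, 577 and 544 CPM in the 3 control libraries. The 3 Pex5-deficient libraries had 534, 386 and 569 CPM. The groups overlapped, and Pex5-deficient replicate 2, whose scaling factor stood apart, was the lowest of all on this TMM scale. The log2 fold change was -0.19 ± 0.17 (95% interval -0.58 to 0.20, adjusted p = 0.602), and -0.02 without that library. Scaled by library size alone, with that library kept, it was -0.06 ± 0.16.

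S100a11, a partner of annexin A1, was at 334, 370.1 and 317 CPM in the 3 control libraries. The Pex5-deficient libraries had 210.0, 139.6 and 225 CPM. Neither group reached into the range of the other. The means were 340.4 ± 27.1 and 192 ± 45.7 CPM, a log2 fold change of -0.83 ± 0.18 (95% interval -1.25 to -0.41), and the adjusted p of 0.0501 missed the threshold of 0.05. It was called by DESeq2 (adjusted p = 0.00143), with upper-quartile factors (0.0458), with library size alone (0.00636), with no filter on low counts (0.0219) and without Pex5-deficient replicate 2 (-0.63, adjusted p = 0.0273). Of its 100-base words 34.0% also occur in the gene Gm12854, which the table does not list, so the level of S100a11 is uncertain.

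Counted within each library, the shares of S100a1 and S100a8 were higher and those of S100a10 and S100a11 lower in all 3 Pex5-deficient libraries than in any control library. The shares of S100a4, S100a6 and S100a13 overlapped between the groups. S100a1 took 20.5%, 25.2% and 21.3% of the members' counts in control replicates 1 to 3. In Pex5-deficient replicates 1 to 3 it took 51.9%, 45.6% and 55.4%. S100a11 took 27.0%, 27.4% and 25.9% in control and 11.9%, 12.5% and 11.01% in Pex5-deficient libraries. S100a10 went from 44.5 ± 1.85% to 30.8 ± 3.36% and S100a8 from 0.530 ± 0.154% to 1.64 ± 0.322%. The exact 95% binomial interval of any of these shares was no wider than 0.780 percentage points to either side. It covers counting error only and leaves out the spread between libraries. A share can fall because another member rose, so ratios to S100a10 are given too. S100a11 had 0.581 to 0.642 counts for each S100a10 count in control and 0.362 to 0.396 in Pex5-deficient libraries. S100a1 had 0.442 to 0.590 and 1.33 to 1.99, so that both pairs of ranges were apart.

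**Figure D2:**
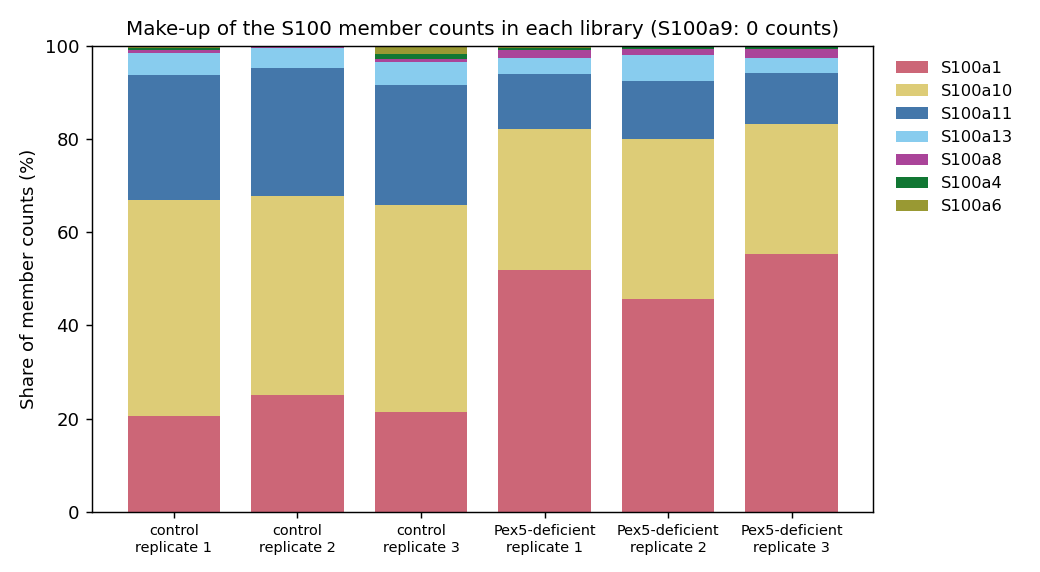
Share of the summed counts of the S100 members (vertical axis, %) taken by each gene in the 6 libraries (bars). S100a1 takes 20.5% to 25.2% of the bar in control and 45.6% to 55.4% in Pex5-deficient libraries, and S100a11 shrinks from 25.9% or more to 12.5% or less.

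Set on 1 scale as CPM per kilobase of annotated exon, S100a11 was the most abundant member in control macrophages (666 ± 53.1), followed by S100a10 (466 ± 15.3) and S100a1 (411 ± 69.1), whose ranges overlapped. S100a13 came next (81.3 ± 2.57), and S100a4 (12.6 ± 11.4), S100a8 (9.60 ± 2.38) and S100a6 (6.46 ± 7.22) could not be ordered beyond their spread. In Pex5-deficient macrophages S100a1 led (1231 ± 455), above S100a10 (409 ± 80.0) and S100a11 (375 ± 89.5), which overlapped each other. S100a13 (87.1 ± 2.95) and S100a8 (40.3 ± 18.4) followed, and then S100a4 (13.7 ± 4.92) and S100a6 (3.43 ± 1.499). These levels use the union of all annotated exons and would change with the transcript used.

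**Figure D3:**
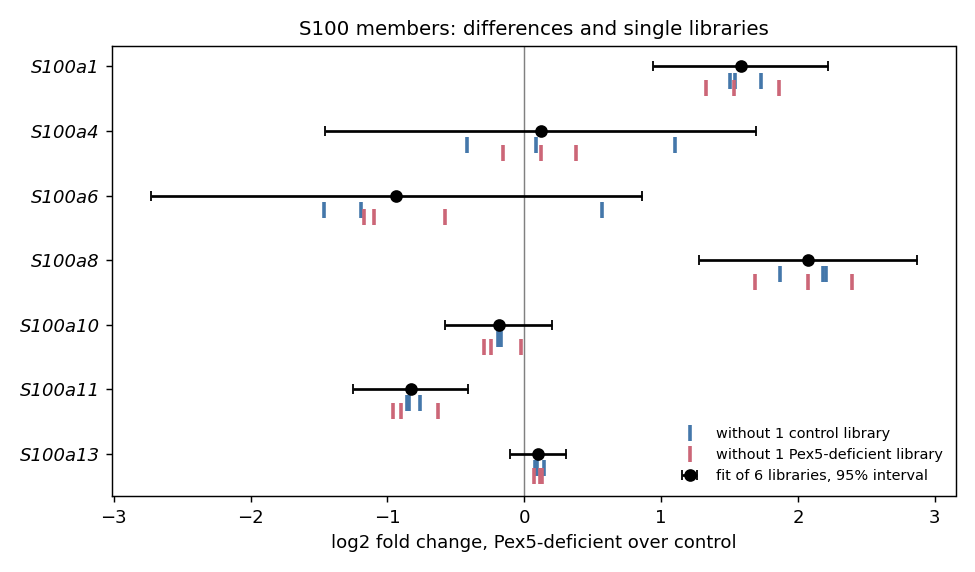
Log2 fold change of each tested member, Pex5-deficient over control (horizontal axis), with its 95% interval from the fit of 6 libraries (black) and the values with 1 library left out (ticks below). S100a1 runs from 1.32 to 1.86, S100a8 from 1.69 to 2.39 and S100a11 from -0.96 to -0.63, whereas S100a4 and S100a6 cross 0.

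S100a4, which binds non-muscle myosin, and S100a6, a partner of the scaffold protein CACYBP, behaved unlike the rest. S100a4 was at 6.88, 0.916 and 14.2 CPM in control against 10.95, 5.21 and 7.91 CPM in Pex5-deficient libraries. S100a6 was at 5.24, 1.26 and 20.0 CPM in control against 6.18, 2.35 and 5.54 CPM in Pex5-deficient libraries. Both were highest in control replicate 3 and lowest in control replicate 2, and the 6 libraries stood in the same order for S100a4 as for S100a6.

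The SD of log2 CPM among control libraries was 1.96 for S100a4 and 1.93 for S100a6, at the percentiles 99.98 and 99.97 of all tested genes, whose median was 0.163. S100a10 and S100a13 were at the percentiles 7.86 and 7.10. Neither S100a4 (log2 fold change 0.12 ± 0.69, adjusted p = 0.949) nor S100a6 (-0.93 ± 0.79, adjusted p = 0.572) was called, and their 95% intervals, -1.45 to 1.70 and -2.73 to 0.86, hold differences of either sign. The value for S100a6 turned to 0.57 without control replicate 3. The value for S100a4 turned to -0.42 without control replicate 2 and to -0.16 without Pex5-deficient replicate 1. Among monocyte markers in control replicates 1 to 3, Ccr2 was at 4.77, 3.26 and 5.60 CPM and Ace at 15.2, 14.3 and 17.7 CPM. Both stood in the order of S100a4 and S100a6. Nr4a1 was at 4.46, 5.73 and 4.52 CPM, highest in replicate 2, and the remaining monocyte markers stayed under 1 CPM. The 9 monocyte markers summed to 23.9 to 29.0 CPM there and the 8 lymphocyte markers to 1.013 to 1.72 CPM, most of it from Klrb1c, which was lowest in replicate 3. Epcam, an epithelial marker, was at 98.7, 41.9 and 129 CPM in control replicates 1 to 3, in the order of S100a4 and S100a6. Among alveolar macrophage markers, Marco (714, 1242 and 262 CPM) and Car4 (1441, 2244 and 668 CPM) stood in the reverse order. Pparg (115, 142 and 130 CPM) followed neither order. The part of any of these cells in the spread of S100a4 and S100a6 was not tested.

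**Figure D4:**
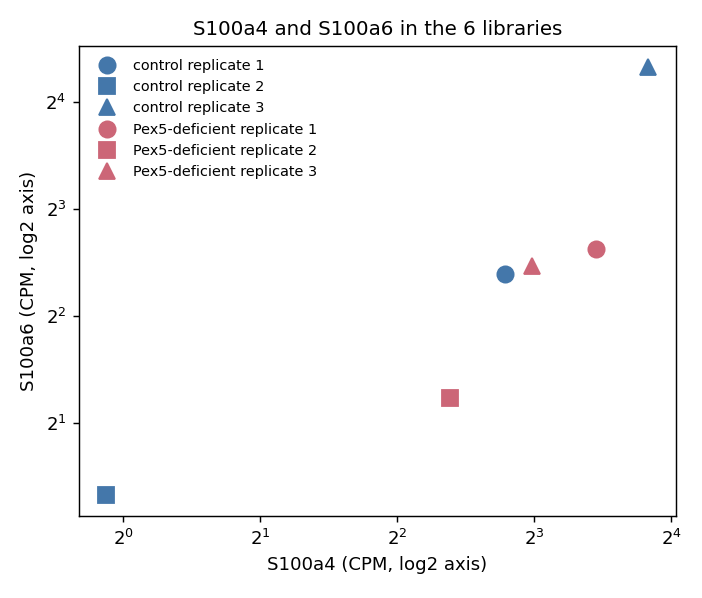
Level of S100a6 against S100a4 (CPM, log2 axes) in 3 control (blue) and 3 Pex5-deficient (red) libraries. Control replicates 2 and 3 lie at the opposite ends for both genes, at 0.916 and 14.2 CPM of S100a4, with the Pex5-deficient libraries between them.

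The count of S100a4 is uncertain in another way. The gene Gm42674 shares 302 exonic bases with it on the same strand, and its count was 72.9% to 81.4% of the S100a4 count in every library.

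Of 10 further S100 genes that were listed, 9 had a place in the table and 0 passed the filter. S100a2, S100a3, S100a7a, S100a14 and S100z had 0 counts throughout, and S100a5, S100a16, S100b and S100g reached at most 4 counts in a library.

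Receptors reported for S100A8 and S100A9 had calls in both directions. Of 11 tested, 2 fell and 1 rose, beside 3.25% of all tested genes called. The median log2 fold change of these receptors was -0.15. Emb, which encodes the adhesion protein embigin, was at 70.2, 38.5 and 68.3 CPM in control against 6.65, 7.44 and 10.7 CPM in Pex5-deficient libraries (log2 fold change -2.83 ± 0.26, adjusted p = 0.00258). Its groups were far apart, and it was called whichever library was left out. Mcam, another adhesion receptor, fell, with 76.2 ± 3.68 against 44.1 ± 6.98 CPM (adjusted p = 0.0165), but was not called with library size alone (0.205), without Pex5-deficient replicate 1 (0.0726), or without control replicate 1 (0.0703) or 3 (0.0652). Alcam rose, with 3.19 ± 1.13 against 7.62 ± 1.39 CPM (adjusted p = 0.0478). That call was lost when any library except Pex5-deficient replicate 2 was left out (adjusted p 0.0545 to 0.159) and with a filter at a mean of 5 CPM (0.0521). Tlr4, the signalling receptor for calprotectin, had -0.16 ± 0.32 (adjusted p = 0.843), and Ager, which encodes RAGE, stayed under 1 CPM in every library.

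Among 9 tested regulators of S100a8 and S100a9 transcription 1 rose and 0 fell (median -0.22), beside 3.25% of all tested genes called. Atf3, a stress-induced factor, went from 14.4 ± 2.23 to 37.5 ± 12.9 CPM (1.37 ± 0.23, adjusted p = 0.0203) and was not called without control replicate 1 (0.0978) or 2 (0.0748). Spi1, which encodes PU.1, had -0.28 ± 0.19 and Cebpb, a C/EBP factor, 1.05 ± 0.56, and neither was called.

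Of 9 tested annexins and AHNAK genes 0 were called (median -0.10). Anxa2, the partner of S100a10 and the most abundant of the list, was at 3939, 3811 and 3615 CPM in control against 2664, 2107 and 3159 CPM in Pex5-deficient libraries (-0.52 ± 0.23, adjusted p = 0.278). Its Pex5-deficient libraries lay below all control libraries. S100a10 had 0.146 to 0.151 counts for each Anxa2 count in control and 0.180 to 0.200 in Pex5-deficient libraries. Ahnak, a large scaffold protein, had -0.37 ± 0.12 (adjusted p = 0.141). In the plasminogen system that S100A10 serves at the cell surface, 0 of 5 tested genes were called (median 0.04), with Plau at 1.23 ± 0.32 (adjusted p = 0.0855) and Plaur at -0.26 ± 0.14 (0.364), while Plg and Plat had 0 counts.

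Targets of the other members gave no calls either. With 3.25% of all tested genes called, lists this short, those of annexins and plasminogen genes included, would often hold none. The lack of calls therefore says little about them. Of 7 tested genes of non-muscle myosin and S100A4 or S100A6 binding 0 were called (median -0.13). Myl12b, a myosin light chain, was at 1193 ± 134 CPM in control against 643 ± 191 CPM in Pex5-deficient libraries (-0.89 ± 0.24, adjusted p = 0.0906), and Trp53, which encodes p53, had -0.38 ± 0.09 (0.0734). Of 3 tested genes around S100A13 release, Fgf1 had 0.62 ± 0.31, Il1a 0.54 ± 0.25 and Casp1 0.13 ± 0.13 (median 0.54). Of 4 tested calcium-cycling targets of S100A1, Ryr1, a calcium release channel, had 0.48 ± 0.23 (median 0.18). Of 13 tested calcium sensors of other EF-hand families 0 were called (median -0.07). Among these, the calpain genes Capn2 and Capn1 had -0.42 ± 0.12 (adjusted p = 0.111) and -0.42 ± 0.15 (0.189), and Lcp1, an actin-bundling protein and the most abundant, had -0.07 ± 0.25.

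**Figure D5:**
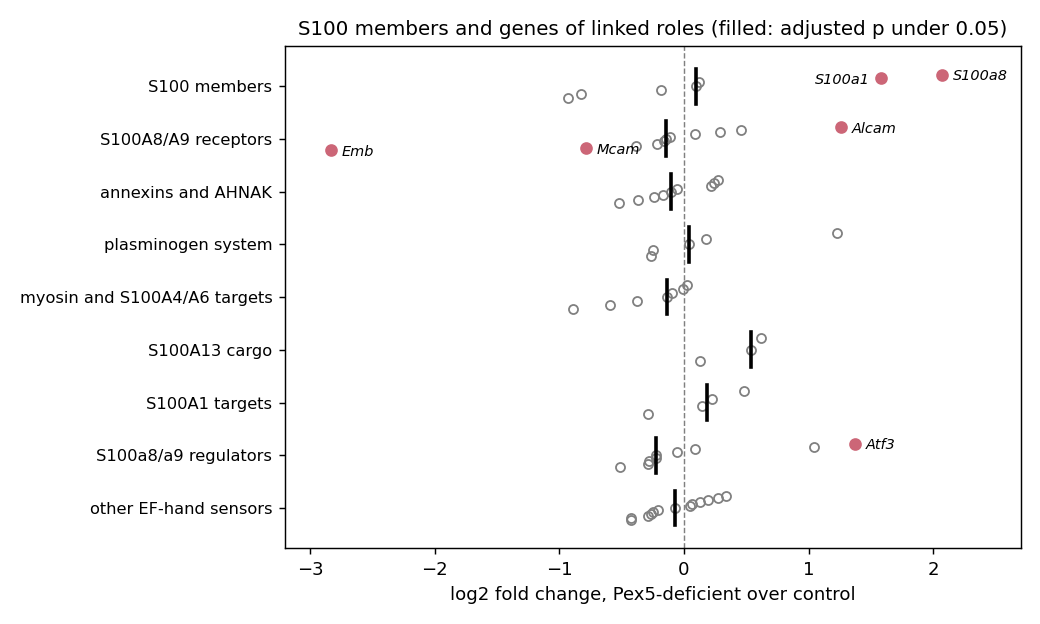
Log2 fold change, Pex5-deficient over control (horizontal axis), of the tested S100 members and of 8 lists of genes with linked roles (points), with each list's median (black bar) and the median of all tested genes (dashed line). Filled points passed an adjusted p of 0.05: S100a1 and S100a8 among the members, Emb, Mcam and Alcam among the receptors and Atf3 among the regulators.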

How the data were processed

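The authors deposited 1 table of raw counts per gene symbol, with 25664 genes and a column for each of 6 libraries. Per the labels' protocols, stranded SMART-Seq libraries were made from sorted lavage macrophages and read single-end. No molecular identifiers are named, so counts are of reads after PCR. The submitters' processing notes name STAR, featureCounts, DESeq2 1.40.1 and R 4.3.2, with GRCm38.p5 and mm10. The annotation and the strand setting were not given in those sources.

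Groups came from the genotype labels. The members and gene lists were chosen with earlier results of these data known. Genes were filtered with edgeR's filterByExpr (minimum count 10, minimum total 15), which left 11011, scaled by TMM and compared with edgeR 4.0.16 (glmQLFit, glmQLFTest, two-sided, R 4.3.3). DESeq2 1.42.0, limma-voom (limma 3.58.1), other scalings and filters, a replicate block and leaving out each library were run beside it. Each SE was computed from the log2 fold change and its F statistic. The test was tested on simulated data, where it found 13.7% of 1.5-fold, 63.8% of 2-fold and 99.1% of 4-fold changes.

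Positions, exon lengths and shared words are from GENCODE M21 on GRCm38, to which 24932 symbols matched, and promoters from RefSeq on GRCm38.p6. All members are named. Of each linked list the called genes are named, or else the 2 with the smallest p and the most abundant, and of markers of other cells the called and the most abundant. Siglecf and the other alveolar macrophage markers, Tlr4, Ager, Spi1, Cebpb, Ccr2, Nr4a1, Klrb1c, Mmp8, Csf3r, Hbb-bs, Chtop and markers given at or near 0 were added for their roles after their values were seen. Some genes that the rule would name are not reported here.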

Additional observations from a re-analysis of the deposited data

How the results depend on the processing

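S100a1, S100a8, S100a10, S100a11 and S100a13 kept the sign of their difference under all 14 alternatives. S100a1 and S100a8 each kept their call under 9 of the 14, and S100a11, not called at first, was called under 5. S100a9, with no counts, has no alternative values. The number of members called was 1 with limma-voom and 1 with the replicate block, and it ran from 0 to 3 when single libraries were left out. The number of all genes called was 755 with DESeq2 and 83 with the replicate block. It ran from 76 (control replicate 1 left out) to 523 (Pex5-deficient replicate 2 left out), with 117 and 219 when Pex5-deficient replicates 1 and 3 were dropped and 181 and 136 when control replicates 2 and 3 were. S100a6 reversed to 0.57 when control replicate 3 was dropped, and S100a4 to -0.42 and -0.16 when control replicate 2 or Pex5-deficient replicate 1 was. The leave-out ranges of the log2 fold change were -0.42 to 1.10 for S100a4, -1.46 to 0.57 for S100a6, 1.69 to 2.39 for S100a8, -0.30 to -0.02 for S100a10 and 0.07 to 0.14 for S100a13. With library size alone the median over all genes was 0.17. Leaving out a library also takes away a degree of freedom, and the cause of the other changes was not tested. Libraries with the same number did not deviate together (correlations of -0.21, -0.06 and -0.41 across genes), so the numbers were not taken as pairs. In the fit with the replicate block S100a1 had 1.53 (adjusted p = 0.109) and S100a8 1.997 (adjusted p = 0.0165), and Atf3 (0.0572), Alcam (0.0739) and Mcam (0.0758) were not called.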

Other observations

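Each member's profile over the 6 libraries was set against those of tested protein-coding genes by the root-mean-square distance of centred log2 CPM. Other S100 genes and genes with provisional names (Gm or Rik), Gm42674 among them, were left out. The nearest of the remaining genes are given as a description. Ctsk, a lysosomal protease, was nearest to S100a1 (0.13), with 681 ± 67.9 CPM in control against 2217 ± 847 CPM in Pex5-deficient libraries. Ceacam1, an adhesion molecule, was nearest to S100a8 (0.30), followed by Phlda3, a target of p53 (0.34), which had 49.7 ± 3.31 and 161 ± 40.3 CPM. Myl12b was nearest to S100a11 (0.10), followed by Il1rn, the interleukin-1 receptor antagonist (0.11), and Tmsb10, which sequesters actin (0.12). Capg, an actin-capping protein, was nearest to S100a10 (0.03) and Acd to S100a13 (0.01). Lat2 was nearest to S100a4 (0.57) and Gpr141 to S100a6 (0.68). The distance is not scaled by a gene's own spread, so its size cannot be compared between members.

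The 8 members summed to 1239, 1352 and 1223 CPM over the control libraries. Over the Pex5-deficient libraries they summed to 1767, 1121 and 2047 CPM, so the groups overlapped on this TMM scale. As a share of all counts, without TMM, the members took 0.111%, 0.124% and 0.126% in control replicates 1 to 3. In Pex5-deficient replicates 1 to 3 the share was 0.170%, 0.150% and 0.187%, with no overlap, so the overlap depends on the scaling. Of the markers of other cells, Ccl22 was called higher (6.63 ± 0.946 and 17.5 ± 3.68 CPM), and 7 of 8 dendritic cell markers stayed under 1 CPM in every library. Epcam was called lower (89.9 ± 44.2 and 13.3 ± 0.577 CPM), while 9 of 12 lung epithelial markers stayed under 1 CPM. All 7 markers of eosinophils, mast cells and basophils and all 8 of fibroblasts and endothelium stayed under 1 CPM, as did 7 of 8 lymphocyte markers. The erythroid and platelet markers summed to at most 5.04 CPM in a library, Pex5-deficient replicate 2, which also had the scaling factor that stood apart. Hbb-bs, a haemoglobin gene, had 51 counts there, 0 and 1 in Pex5-deficient replicates 1 and 3, and 0 in each control library.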
